A study of Mus musculus with 12 samples.

Results

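Transcripts of the S100, annexin and galectin genes were read in single cultured cardiac progenitor cells (CPCs), which are heart cells taken by a sort for c-Kit and grown on gelatin. The members were the rows of the count table whose names are S100a, S100b or S100g, Anxa or Lgals followed by their number, which gave 35 of the 21729 genes listed: 15 S100 genes, 12 annexins and 8 galectins. The 12 libraries form 1 group without treatment arms. The mice were FVB females of 12 weeks with no allele or transgene named, hearts were pooled in pairs, and lineage-depleted cells retained on CD117 beads were passaged 5 times in medium with serum, LIF at 10 ng/ml, basic FGF at 10 ng/ml and EGF at 20 ng/ml. Each library is 1 cell picked by hand, of unnamed culture and animal. The 12 cells therefore count as 1 sample, no test was made between them, and each SD below describes the spread over these cells.

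The members belong to gene families whose proteins act where calcium, membranes and sugars meet. S100 proteins are small calcium-binding proteins that pair up and attach to target proteins, and some are secreted and act as alarm signals. Annexins bind acidic phospholipids when calcium rises, and take part in membrane repair, vesicle traffic and blood clotting. Galectins bind beta-galactoside sugars on glycoproteins at the cell surface and on damaged endosomes. Several members work across families, since S100a10 binds Anxa2 and S100a11 binds Anxa1. In the heart S100a1 is known from cardiomyocytes, where it acts on calcium cycling, while Lgals3 is known from macrophages and fibroblasts.

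Depth ran from 3453708 to 5690184 counts per cell, and 10022 to 11950 genes were counted. Values are given in CPM, which is counts per 1000000 counts of the cell. A count of 0 allows up to 3 counts, or 0.527 to 0.869 CPM depending on the cell, and this limit covers counting error only because the libraries carry no molecular identifiers. Kit, the gene behind the sort, had 0 counts in 11 cells and 21 counts in cell 10, whereas Ly6a, Abcg2, Gata4 and Cd34 were counted in 12 cells. The Y-linked gene Ddx3y was counted in 12 cells, at 15 to 997 counts, although the labels name female mice. Cell 10 stood apart through endothelial markers, 8 of 10 of which were counted at a sum of 9810 CPM against a median of 12.9 CPM. Cell 3 stood apart through Cd53, a membrane protein of leukocytes, at 1463 CPM, while the leukocyte gene Ptprc had 0 counts in it. The fibroblast markers Dcn and Pdgfra were also highest in cell 3, at 222.5 and 276 CPM. Its sum over 10 fibroblast markers was nevertheless 765 CPM, against a median of 1214 CPM.

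The members fell into abundant genes that each cell carried and genes that were rare or limited to few cells. A count in any cell was found for 31 members (88.6%), against 66.6% of all genes, and 20 members (57.1%) were counted in each of the 12 cells, against 35.3%. At least 1 count in each cell and a median of at least 100 CPM was reached by 17 of 35 members (48.6%), against 8.95% of all genes in the table. These were 7 S100 genes, 7 annexins and 3 galectins. At the other end, a gene was called held by 1 cell when that cell had at least 80% of the CPM summed over the cells, with at least 4 counts. Only S100a8 met this, which is 1 of 29 members with 4 counts in a cell (3.45%), against 8.26% of all such genes. Limits of this kind have edges. S100a4, at a median of 125 CPM, was the lowest member within the abundant set, and Lgals8, at 90.7 CPM, was the highest member outside it.

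The upstream sequences of 4 members are given first: Anxa2 and S100a11 among the most abundant, S100a6 as the most abundant S100 gene, and S100a8 as the gene held by 1 cell. Each is a window of 300 bases of genome build GRCm38.p6 from RefSeq, from 250 bases before the annotated start to 50 bases from it on, written 5′ to 3′ on the strand of the gene. Capitals mark matches, on either strand, to the TATA box (TATAAA), the CCAAT box, the GC box (searched as GGGCGG) and the AP-1 site, whose letters were TGANTCA. No marked match overlaps another in these windows. The windows were chr9:69453433-69453732 (plus strand) for Anxa2, chr3:93520246-93520545 (plus strand) for S100a11, chr3:90612644-90612943 (plus strand) for S100a6 and chr3:90668821-90669120 (plus strand) for S100a8.
Anxa2: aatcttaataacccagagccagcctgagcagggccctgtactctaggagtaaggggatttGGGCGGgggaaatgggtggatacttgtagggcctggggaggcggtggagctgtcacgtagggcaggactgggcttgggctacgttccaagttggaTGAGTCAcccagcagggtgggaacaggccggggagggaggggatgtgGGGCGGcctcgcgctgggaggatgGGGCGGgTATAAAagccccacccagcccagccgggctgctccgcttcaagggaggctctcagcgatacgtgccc
S100a11: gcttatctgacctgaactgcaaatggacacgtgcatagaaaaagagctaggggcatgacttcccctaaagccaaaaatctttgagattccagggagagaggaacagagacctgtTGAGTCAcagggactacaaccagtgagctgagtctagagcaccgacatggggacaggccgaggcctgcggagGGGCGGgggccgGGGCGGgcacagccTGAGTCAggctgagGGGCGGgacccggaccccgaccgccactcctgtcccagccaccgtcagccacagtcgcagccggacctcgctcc
S100a6: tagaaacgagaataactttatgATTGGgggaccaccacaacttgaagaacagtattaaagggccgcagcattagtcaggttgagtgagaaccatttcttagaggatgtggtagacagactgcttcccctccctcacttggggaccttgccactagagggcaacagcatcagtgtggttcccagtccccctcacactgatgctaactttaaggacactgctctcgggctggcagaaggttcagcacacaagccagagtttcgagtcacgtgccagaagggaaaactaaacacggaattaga
S100a8: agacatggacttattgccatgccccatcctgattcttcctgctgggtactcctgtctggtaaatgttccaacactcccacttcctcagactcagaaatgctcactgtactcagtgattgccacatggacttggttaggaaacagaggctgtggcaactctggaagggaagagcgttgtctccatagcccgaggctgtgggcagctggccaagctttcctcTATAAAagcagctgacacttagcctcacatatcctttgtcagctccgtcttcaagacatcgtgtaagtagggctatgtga
Of the 32851 windows of the RefSeq table, 13.6% held the TATA box, 37.4% the CCAAT box, 35.7% the GC box and 7.81% the AP-1 site. S100a8 had the TATA box 30 bases before its start and no other motif, and S100a6 had a CCAAT box on the opposite strand and no other motif. The table held windows for 27 of the 35 members, and 13 of these genes were in the abundant set, with 16 windows. The abundant members without a window were Lgals1, S100a10, Anxa3 and Anxa6. Of the 16 windows, 3 held the TATA box, 2 the CCAAT box, 7 the GC box and 3 the AP-1 site. The windows of Anxa7 overlap and share a GC box, which is counted in each. Of the 18 windows of the other members, 5 held the TATA box, 5 the CCAAT box, 5 the GC box and 1 the AP-1 site. The GC content of the windows of abundant members had a median of 58.6%, against 53.2% for the windows of the other members and 52.7% over the table. A match of letters is a description and shows no binding.

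Among the S100 genes, 3 carried most of the message. S100a6 (calcyclin, chromosome 3, 90612882 to 90624181, mm10) had 2912 CPM in the lowest cell, a median of 7091 CPM and 14361 CPM in the highest, with a mean of 7652 ± 2875 CPM (SD, 12 cells). The lowest was cell 9, the next was cell 11 at 4848 CPM, and the ratio of the highest to the lowest cell was 4.93, or 2.96 without cell 9. Ranked by CPM per kilobase of merged exons, S100a6 held a place between 1 and 5 among all genes in each cell. S100a11, the partner of Anxa1, had a lowest value of 760 CPM, a median of 2095 CPM and a highest of 3055 CPM. It ranked between 2 and 18 per kilobase. S100a10, the partner of Anxa2, which cannot bind calcium itself, ranged from 517 CPM through a median of 1513 CPM to 2858 CPM. Its lowest cells were 10 and 3, and its mean was 1508 ± 758 CPM with them and 1703 ± 670 CPM without them (SD, 10 cells).

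The other 4 abundant S100 genes were lower and more uneven. S100a16, a widely expressed member, had a median of 302 CPM, with 868 CPM in cell 2 and 28.7 CPM in cell 10. S100a4, also called fibroblast-specific protein, had a median of 125 CPM, with 267 CPM in cell 5 and 10.3 CPM in cell 10. Cell 10 was lowest for both by a wide margin, since the next lowest values were 155 CPM for S100a16 in cell 7 and 52.0 CPM for S100a4 in cell 9. The cell with these low values also had the lowest sum over the 10 fibroblast markers, at 188 CPM of 5 counted markers, against 536 to 6333 CPM in the other cells. Of this sum Pdgfra gave 175 CPM, the second highest Pdgfra of the 12 cells, while the collagen genes Col1a1, Col1a2 and Col3a1 were at their lowest, at 10.7, 0.376 and 1.13 CPM. The part of these markers in the result was not tested. Without cells 3 and 10 the means were 403 ± 230 CPM for S100a16 and 139 ± 72.9 CPM for S100a4 (SD, 10 cells), against 361 ± 236 and 138 ± 84.0 CPM with them. S100a13, which is needed for the export of FGF1, had 62.0 CPM in cell 9, a median of 219 CPM and 475 CPM in cell 1. S100a1, the calcium-cycling member of cardiomyocytes, had 31.6 CPM in cell 9, a median of 198 CPM and 524 CPM in cell 1. Cells 3 and 9 were low for S100a1, at 33.8 and 31.6 CPM, while the remaining cells had at least 134 CPM. Of 10 cardiomyocyte markers 7 had no counts in any cell, Myh6, Actc1 and Ryr2 among them, while Tnnt2 (cardiac troponin T) had counts in 10 cells and was highest in cells 12 and 8, at 86.6 and 59.1 CPM.

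Annexins were led by Anxa2. Anxa2, which binds plasminogen activator together with S100a10, had 2205 CPM in cell 3, a median of 4758 CPM and 9679 CPM in cell 8. Anxa1, a mediator that dampens inflammation, had 842 CPM in cell 10, a median of 2860 CPM and 6917 CPM in cell 11. The balance of the 2 genes differed from cell to cell, with 4.43 times as much Anxa2 as Anxa1 per kilobase in cell 8 and 0.643 times in cell 11. Anxa3 ranged from 548 CPM through a median of 1645 CPM to 2617 CPM, and Anxa5, the phosphatidylserine binder used to stain dying cells, from 418 CPM through 1325 CPM to 2447 CPM. The low end of Anxa5 was cell 10 alone, as the next lowest cell had 986 CPM. Without cells 3 and 10 the means were 5794 ± 2110 CPM for Anxa2, against 5342 ± 2213 CPM with them, and 1427 ± 461 CPM for Anxa5, against 1361 ± 515 CPM. Cell 11 was highest and cell 10 lowest for both Anxa1 and Anxa5. Cell 11 also had the highest sum of mural cell markers, at 3737 CPM of 3 counted markers of 10, of which Acta2 (smooth muscle actin) gave 3668 CPM, against 13.8 to 172 CPM in the other cells, and the part of this was not tested.

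Anxa4, Anxa6 and Anxa7 were the lowest of the abundant annexins. Anxa6 had a mean of 364 ± 131 CPM (SD, 12 cells), Anxa4 of 242 ± 78.9 CPM and Anxa7, first described as synexin, of 233 ± 56.5 CPM. Over the 12 cells Anxa7 had the narrowest ratio between the highest and the lowest cell of the 17 abundant members, at 2.58, and S100a16 the widest, at 30.2. Without cell 10 the ratio of S100a16 was 5.58, place 6 of 17, and Lgals3 had the widest, at 18.2, while Anxa5 had the narrowest, at 2.48, and Anxa7 took place 16. Without cells 3 and 10 Lgals1 had the narrowest, at 2.19. By the coefficient of variation (SD divided by mean) Lgals3 came first, at 0.885, and Lgals9 second, at 0.779. This order rested on cell 9, without which Lgals3 had 0.605 and Lgals9 0.741.

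Galectin transcripts were mostly Lgals1, which made up 62.5 to 95.2% of the galectin CPM of a cell, and 76.2 to 95.2% without cells 3 and 10. Lgals1, a secreted dimer that binds integrins and laminin, had 1892 CPM in cell 10, a median of 4977 CPM and 8376 CPM in cell 4. Lgals3, which carries a collagen-like tail and gathers into larger complexes, had 55.2 CPM in cell 11, a median of 265 CPM and 1005 CPM in cell 9. Per kilobase the cells held a median of 40.2 times as much Lgals1 as Lgals3, with a range of 9.17 in cell 9 to 210 in cell 11. Lgals9, a tandem galectin that binds Tim-3 on T cells, was high in cells 3, 7 and 10, at 958, 1007 and 994 CPM, and no higher than 378 CPM in the other 9. Without cells 3 and 10, Lgals9 had a mean of 329 ± 253 CPM (SD, 10 cells), against 437 ± 340 CPM with them, and Lgals1 5561 ± 1353 CPM, against 5038 ± 1743 CPM. The highest cell of Lgals3, cell 9, was the lowest of Lgals9, and Lgals1 was lowest in cells 10 and 3, at 1892 and 2957 CPM.

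**Figure D1:**
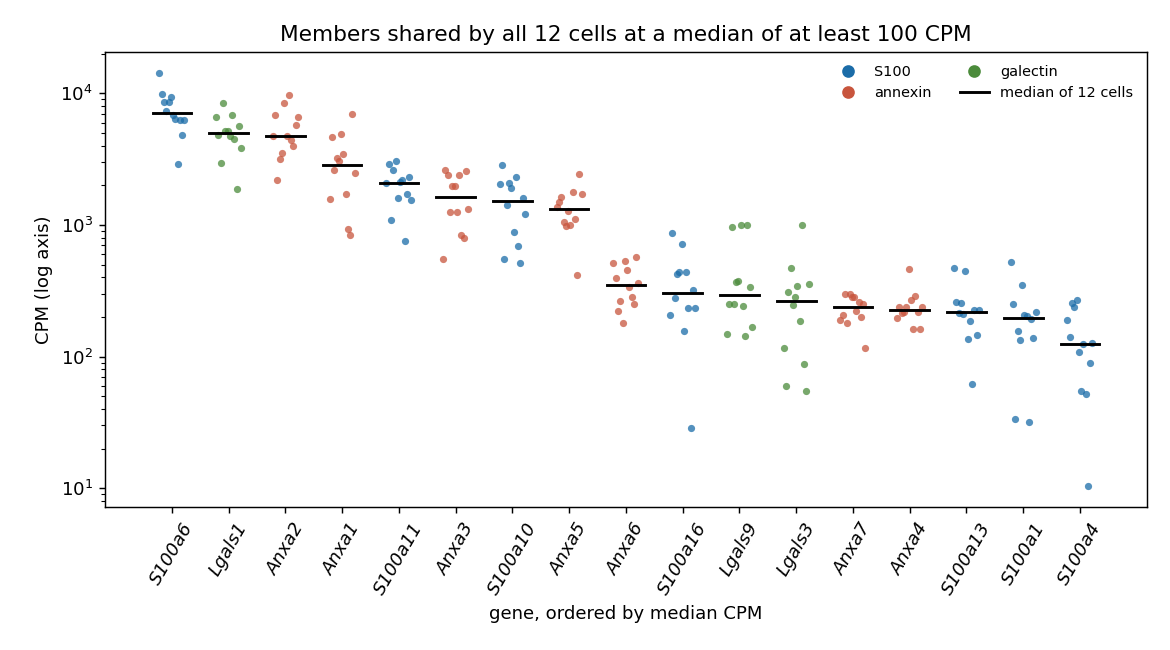
Each point is 1 cell, with CPM on a log axis, for the 17 members counted in every cell at a median of at least 100 CPM, and bars are medians of 12 cells. S100a6, Lgals1 and Anxa2 have lowest cells at 2912, 1892 and 2205 CPM, while S100a16 and S100a4 each have 1 point far below the rest.

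Levels of different genes were compared per kilobase of merged exons. By the median the order began with Lgals1 (5511 CPM per kilobase), S100a6 (5187), S100a11 (4101), Anxa2 (1275), S100a10 (1249), Anxa1 (982) and Anxa5 (746), and ended with Anxa6 (120), Anxa4 (48.7) and Anxa7 (39.6). The leading genes were not separable, because Lgals1 was above S100a6 in 5 of 12 cells. S100a11 was above Anxa2 in 12 cells and Anxa6 above Anxa4 in 12 cells. Anxa5 was above Anxa3 in 12 cells as well, but by the median this order turned with the longest transcript as the length, at 765 CPM per kilobase for Anxa5 against 1032 for Anxa3. Anxa2 and S100a10, which form a complex, were neighbours in the order: Anxa2 was the higher in 8 of 12 cells, and their ratio had a median of 1.33 and a range of 0.558 to 2.49. Other neighbours lay as close, such as S100a10 and Anxa1 and S100a6 and S100a11, each pair at a median ratio of 1.32. With the longest transcript as the length, S100a6 also came before Lgals1, S100a10 before Anxa2 and S100a16 before S100a4, and 9 of the 17 members held the same place, so the order of these neighbours depends on the gene model.

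The share of reads taken by the members was read from the counts, with no correction for length. Together they made up a median of 3.11% of a library, from 1.86% in cell 9 to 3.88% in cell 2. S100 genes took a median of 1.16%, annexins 1.09% and galectins 0.590%, and without cells 3 and 10 these medians were 1.22, 1.22 and 0.603%. The S100 share was lowest in cell 9 (0.475%) and highest in cell 1 (1.99%), the annexin share was lowest in cell 10 (0.670%) and highest in cell 11 (1.86%), and the galectin share was lowest in cell 10 (0.303%) and highest in cell 4 (0.922%). Without cells 3 and 10 the lowest shares were 0.816% for annexins, in cell 9, and 0.444% for galectins, in cell 12. Of the 17 abundant members, 6 had their lowest value in cell 10 and 5 in cell 9. Cell 9, the lowest for S100 transcripts, had the highest Lgals3. The S100 sum was lower in deeper libraries, with r = -0.531 against the log2 total count and 0.450 against the number of genes over 12 cells, and these were -0.549 and 0.415 without cells 3 and 10. The S100 share was 1.14 to 1.99% in cells 1 to 6 and 0.475 to 1.19% in cells 7 to 12, and mitochondrial genes took 1.48 to 2.77% and 1.02 to 1.59% of the counts. Depth was 3453708 to 5025517 counts in cells 1 to 6 and 4770276 to 5690184 counts in cells 7 to 12. The labels give no ground for a cut after cell 6 and name no batch for these numbers. The part of depth and of mitochondrial share in the S100 levels was not tested.

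**Figure D2:**
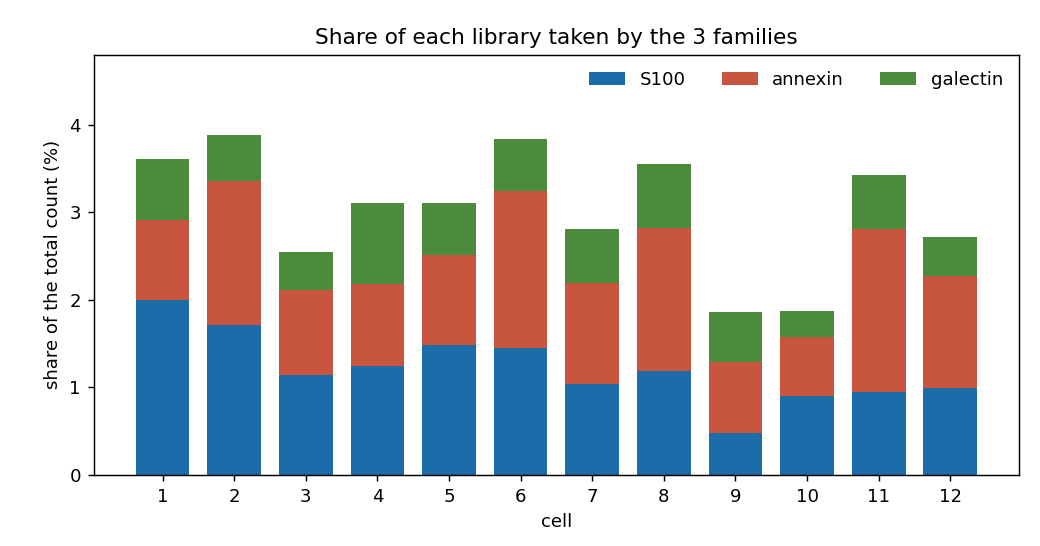
Stacked bars give the percent of the total count of each cell taken by S100 (blue), annexin (red) and galectin (green) genes. Cells 9 and 10 have the shortest bars, at 1.86 and 1.87%, and cell 9 has the shortest blue part.

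Variation between cells was set beside that of genes of like level, as the log10 squared coefficient of variation of CPM less the median of the genes nearest to it in mean CPM. The residual of the 17 abundant members had a median of 0.11, against -0.04 for all 1944 genes that are shared and abundant. This median was 0.0373 without cell 1, 0.0576 without cell 10, 0.0602 without cell 9 and 0.172 without cell 3. Lgals3 (0.76) and Lgals9 (0.71) were the most uneven of the 17 for their level and lay at percentiles 94.8 and 94.1 of 9701 genes, followed by S100a16 (0.52) and S100a1 (0.49). Without cell 9 Lgals3 had 0.46 and took the third place, after Lgals9 (0.70) and S100a16 (0.53). Anxa7 (-0.37) lay at percentile 9.34. S100a6, Anxa2, Anxa5, Anxa6, S100a11 and Lgals1 lay between -0.11 and 0.04 near the 0.0 that is the median of all 9701 genes.

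Co-variation over the cells was described with Pearson's r of log2(CPM + 1) over 12 cells, which share the division by the library total. No p is given. Among the 21 pairs of abundant S100 genes the median r was 0.469, against 0.022 for all pairs of the 1944 shared and abundant genes. For 205 such genes whose longest transcript was no longer than the 1127 bases of the longest S100 transcript among them the median was 0.191, and for 103 such genes on chromosome 3 it was 0.0695. Cell 9 carried part of the S100 value: without it the median fell to 0.336, against 0.212 for the genes with short transcripts. Without cells 3 and 10 it was 0.649. The 21 annexin pairs had a median of 0.194, and the 91 pairs between families 0.0793. The 3 galectin pairs had a median of -0.145, and -0.0773 without cells 3 and 10.

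Particular pairs stood higher. S100a6 and S100a13 had an r of 0.900 (rho 0.734), which stayed at 0.795 or more when any 1 cell was left out. S100a10 and S100a11 had an r of 0.698, with 0.627 as the lowest value without 1 cell, and Anxa1 and Anxa3 had 0.703, with 0.640 as the lowest. S100a10 and S100a16 had an r of 0.730, and 0.709 without cells 3 and 10. The complex partners Anxa2 and S100a10 had an r of 0.601, which was 0.373 without cells 3 and 10. The other named partners, S100a11 and Anxa1, had 0.504, and 0.262 without cell 9. Pairs between families that are not named here as partners also stood above 0.601. Among them were S100a10 and Lgals1 (0.727, and 0.363 without cells 3 and 10) and S100a16 and Anxa3 (0.639, and 0.684). S100a4 and S100a16 had an r of 0.760, which rested on cell 10 and was 0.317 without it. Lgals9 ran against Lgals1 (r = -0.592), but this was -0.0773 without cells 3 and 10.

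**Figure D3:**
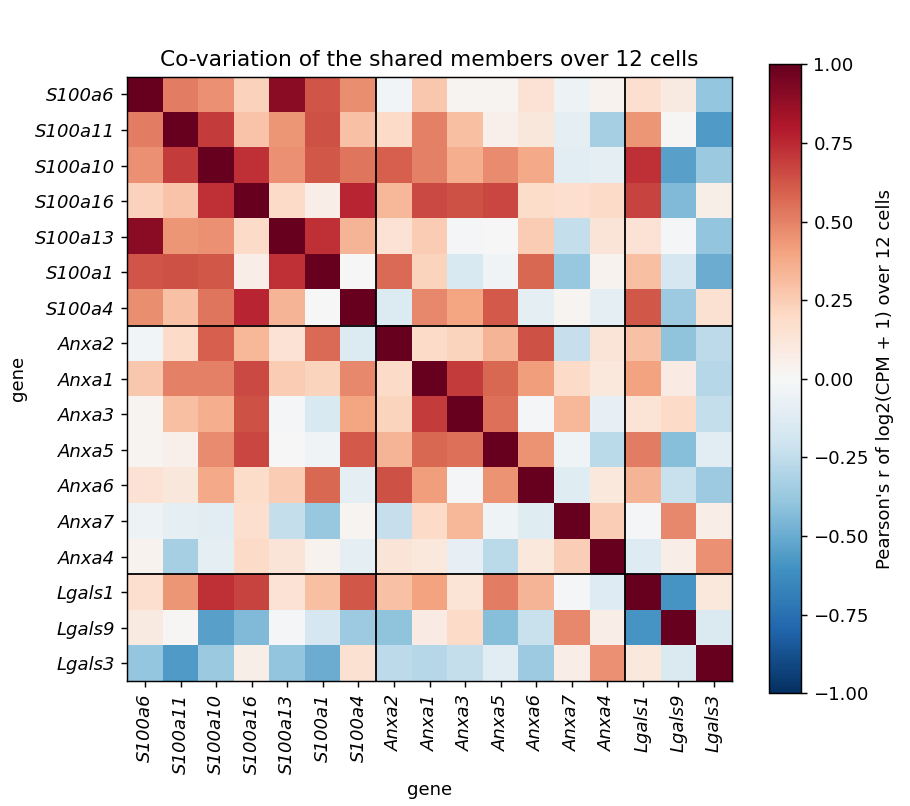
Colours give Pearson's r of log2(CPM + 1) over 12 cells for each pair of the 17 abundant members, with black lines between S100 genes, annexins and galectins. The S100 block is mostly red (median r 0.469), and Lgals3 and S100a11 are blue.

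Most S100 genes lie side by side on chromosome 3, which allows neighbours to be compared. In order, S100a1, S100a13, S100a14, S100a16, S100a3, S100a2, S100a4, S100a5, S100a6, S100a8 and S100a9 lie between 90511034 and 90695721, and S100a11 and S100a10 lie at 93520488 to 93564643. Genes with few or no counts lay between abundant ones along this stretch. S100a6, with a median of 5187 CPM per kilobase, starts 4.4 kilobases after S100a5, with 0.24 CPM per kilobase, and 56.1 kilobases before S100a8, whose median was 0. S100a3 had a median of 1.34 CPM per kilobase between S100a16 (187) and S100a4 (215). The genes S100a2 and S100a9 had no counts in any cell.

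S100a1 and S100a13 stand head to head, transcribed away from each other from RefSeq starts 105 bases apart. Their levels moved together with an r of 0.729 (rho 0.706), and 0.905 without cells 3 and 10, while the lowest value without 1 cell was 0.528, without cell 9. Because the pair shares its upstream sequence, the RefSeq window of S100a13 is shown (chr3:90514185-90514484, GRCm38.p6, plus strand), with the 204 bases that it shares with the window of S100a1 in capitals.
S100a13: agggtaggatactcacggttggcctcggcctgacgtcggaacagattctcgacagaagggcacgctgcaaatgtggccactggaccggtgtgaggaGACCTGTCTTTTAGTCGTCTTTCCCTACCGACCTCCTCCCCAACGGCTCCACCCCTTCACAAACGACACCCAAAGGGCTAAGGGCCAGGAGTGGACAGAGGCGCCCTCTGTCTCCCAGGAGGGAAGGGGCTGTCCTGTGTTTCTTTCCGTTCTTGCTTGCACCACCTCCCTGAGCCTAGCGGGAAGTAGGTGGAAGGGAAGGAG
None of the 4 motifs was found in the window of either gene. Distance along the chromosome did not order the other pairs in a simple way. S100a13 and S100a6 start 98.4 kilobases apart with an r of 0.900, while S100a13 and S100a16 start 22.8 kilobases apart with an r of 0.194.

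**Figure D4:**
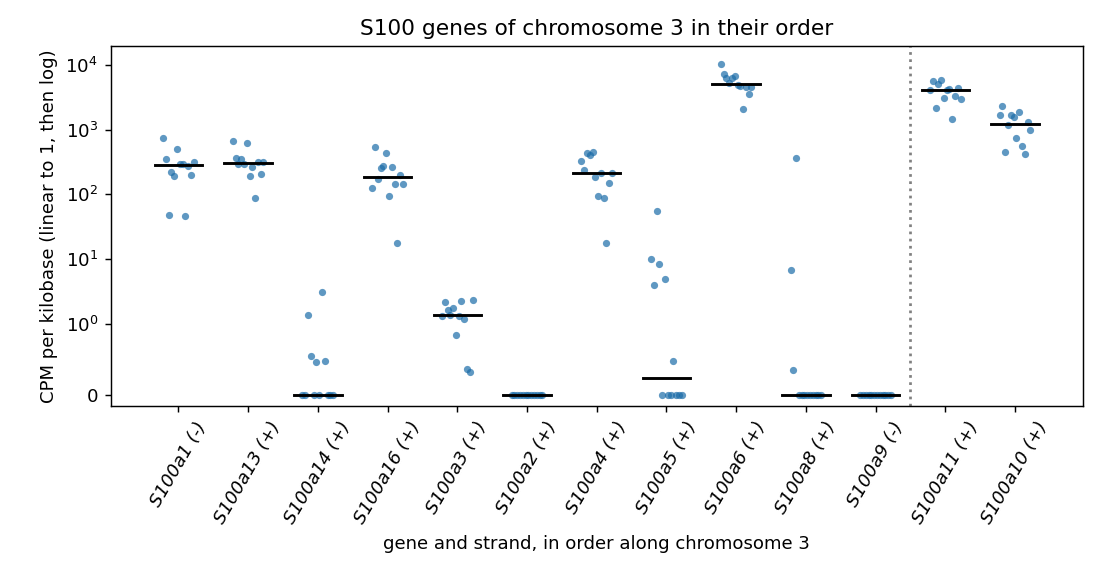
Each point is 1 cell, in CPM per kilobase of merged exons, on an axis that is linear up to 1 and logarithmic above, for 13 S100 genes in their order on chromosome 3, with strand in brackets and bars for medians. The dotted line marks the wide gap before S100a11, and S100a6 stands above its neighbours S100a5 and S100a8.

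The less abundant members included those limited to few cells. S100a8, which together with S100a9 forms calprotectin in neutrophils and monocytes, had 977 counts in cell 3, or 258 CPM (exact 95% Poisson interval 242 to 274). Cell 1 had 16 counts (4.63 CPM), cell 2 had 1 count, and the other 9 cells had none, so that cell 3 held 98.1% of the summed CPM and was 55.6 times as high as cell 1. S100a9 had 0 counts in all 12 cells, which allows up to 0.791 CPM in cell 3. Cell 3 also had the highest sum over 10 myeloid markers, at 1623 CPM of 5 counted markers, against 2.99 to 76.3 CPM in the other cells. Of this sum Cd53 gave 1463 CPM, Cd68 69.1 CPM, Csf1r 59.1 CPM and Lyz2 30.3 CPM, while Ptprc (CD45) had 0 counts in cell 3 and Itgam, Laptm5 and Fcer1g had none in any cell. Of 10 neutrophil markers only Camp was counted in cell 3, at 2.64 CPM, and 8 had no counts in any cell. The fibroblast markers Dcn and Pdgfra were also highest in cell 3, at 222.5 and 276 CPM, although its sum over that list was under the median of the cells. The part of these markers in the S100a8 value was not tested.

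Cell 3 was also the highest cell for S100a5 and Anxa8. S100a5, a member known from olfactory neurons, had 91 counts in cell 3 (24.0 CPM, interval 19.3 to 29.5), 15 counts in each of cells 1 and 4, and 1 to 8 counts in 3 more cells. Anxa8, found in squamous epithelia, was not limited to 1 cell: it had 365 counts in cell 3, 299 in cell 5, 212 in cell 12 and 70 in cell 6, at most 26 in 4 more cells, and none in cells 7, 8, 10 and 11. S100b, known from glia, had 116 counts in cell 6 (30.8 CPM), 85 in cell 12 and 45 in cell 11, and at most 21 elsewhere. The sum over 10 Schwann and glial markers was highest in cells 12 and 11, at 479 and 269 CPM, followed by 127 CPM in cell 7, where S100b had 0 counts, and it was 61.6 CPM in cell 6. Most of it came from Egr2, a transcription factor of myelinating Schwann cells, at 436 CPM in cell 12, 255 CPM in cell 11 and 57.1 CPM in cell 6, and from Ncam1, an adhesion molecule, which was highest in cell 10 at 86.4 CPM. The glial and Schwann cell genes Sox10, Gfap, Erbb3, Cdh19 and Foxd3 had no counts in any cell, and the part of this list in the S100b values was not tested.

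The remaining members had low counts or none, apart from Lgals8. S100a14 reached 29 counts in cell 8, Anxa9 29 counts in cell 11 and Lgals4, a galectin of the gut, 17 counts in cell 11. Anxa10 had 7 counts in each of cells 2 and 3, Lgals2 at most 4 counts, and S100g, which carries calcium across gut and placenta, 1 count in each of cells 4 and 5. Lgals7, a galectin of keratinocytes, was counted in cell 1 only, with 3 counts (exact 95% Poisson interval 0.619 to 8.77), which is at the level that a count of 0 allows. S100a2, S100a9, Anxa13 and Lgals12 had no counts. Counted in each cell, but at a median under 100 CPM, were S100a3, a gene of hair follicles, at 7.90 ± 3.74 CPM (SD, 12 cells), Anxa11, a tether of RNA granules, at 7.43 ± 5.34 CPM, and Lgals8, a sensor of damaged endosomes, at 105 ± 42.6 CPM.

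**Figure D5:**
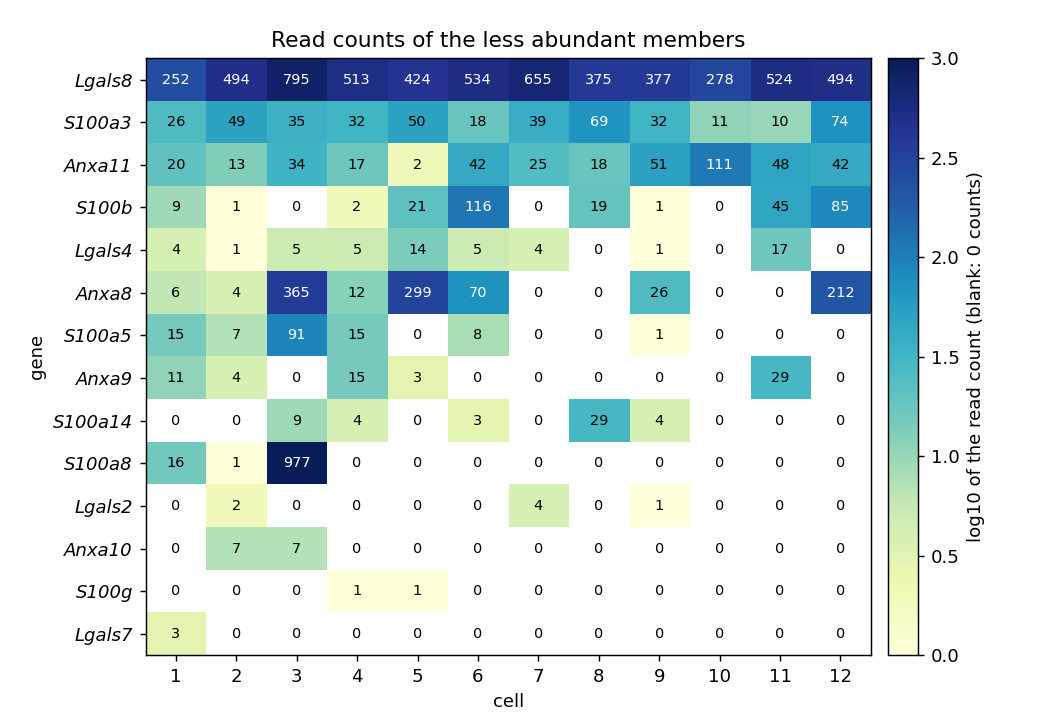
Numbers and colours (log10 scale, blank for 0) give the read count of each of 14 less abundant members in each cell. S100a8 stands out in cell 3 with 977 counts, while Anxa8 has over 200 counts in cells 3, 5 and 12.

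Some counts depend on how reads were assigned, since only uniquely mapped reads were kept. Of all 75-base words in its annotated transcripts, S100a11 shared 37.8% with the copies Gm12854 and Gm7665. Anxa11 shared 14.9% with Gm2260, Gm2274 and Anxa11os, the last of which overlaps it on the opposite strand. S100a4 shared 44.8% with Gm42674, a gene model on the same strand that overlaps 302 of its 584 exon bases and had 0 counts. The levels of S100a11, Anxa11 and S100a4 are therefore uncertain. The other members shared at most 2.53%.

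Genes that work with the families were read from lists of known partners. These lists were chosen with earlier results of these data known, so their shares beside that of all genes are a description only. Of 10 S100 partners and receptors, 7 were counted in each cell at a median of at least 100 CPM, a level reached by 8.95% of all genes: Bsg (basigin, a receptor of S100a9) at 1402 CPM, Ahnak, a scaffold for S100a10 and Anxa2, at 559 CPM, Mdm2 at 457 CPM, Cacybp (which binds S100a6) at 447 CPM, Sugt1 at 214 CPM, Trp53 at 150 CPM and Myh9, the myosin bound by S100a4, at 132 CPM. The other 3 were Ager (RAGE), a receptor of alarm signals, at most 4.05 CPM, Tlr4, a receptor of S100a8, at a median of 36.8 CPM, and Nup98 at 40.2 CPM. Tlr4 was highest in cell 3, which held S100a8, at 127 CPM.

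Of 21 annexin partners and membrane repair genes in the table, 11 reached that level, but S100a10 and S100a11 among them are members already counted above, and Ahnak stands in both lists. Cav1 (caveolin) had a median of 932 CPM, the calpain genes Capn2 and Capns1 had 410 and 182 CPM, the repair genes Pdcd6, Pdcd6ip and Tsg101 had 203, 263 and 207 CPM, Myof (myoferlin) had 135 CPM and Pla2g4a had 124 CPM. Fpr1 and Fpr2, receptors of Anxa1, were each counted in cell 1 only, at 0.869 and 0.290 CPM, and Fpr3 and Plg had no counts. These values are at or under the limit that a count of 0 allows in cell 1.

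Of 13 galectin partners, 6 reached that level. They were the surface and lysosomal glycoproteins Lamp1 (1331 CPM), Itgb1 (1247 CPM), Cd44 (523 CPM), Lamp2 (464 CPM), Itga5 (248 CPM) and Cd47 (189 CPM), all as medians. Havcr2 (Tim-3), a receptor of Lgals9, was highest in cell 3 at 43.2 CPM, with a median of 0.381 CPM. Ptprc, a target of Lgals1 on leukocytes, was held by cell 7, at 9.70 CPM.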

How the data were processed

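Libraries of 12 single cultured CPCs were made with the Smart-Seq v4 and Nextera XT kits. The authors mapped paired reads to mm10 with STAR 2.5.2b, kept unique reads and deposited raw read counts per gene; the counting program and strand rule are not given in the sources used here. Columns were matched to cells by name. CPM is counts divided by the library total, times 1000000. Exon lengths and positions came from GENCODE vM21 (GRCm38, the same build as mm10), in which all 35 members matched. Dispersion used genes at a mean of 5 CPM in at least 3 cells and a window of 201 genes, and was tested on simulated data. Doublets were not called. Members, partner and marker lists, thresholds and the genes named (each abundant member, each member held by 1 cell or 10 times its second cell, and partners at 100 CPM) were chosen with earlier results of these data known. Alternatives varied detection, scaling (TMM of edgeR 4.0.16, size factors of DESeq2 1.42.0), depth, length and cells. Scripts ran under Python 3.11.15 with pandas 2.3.3, numpy 2.4.6 and scipy 1.17.1; figures were drawn with matplotlib 3.10.9.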

Additional observations from a re-analysis of the deposited data

How the results depend on the processing

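Of 45 alternatives that changed a setting or left out several cells at once, 38 left the result within 1.5 times (counts of genes), 1 SD over cells (shares), 0.1 (dispersion) or 0.2 (correlation), and 7 moved it further. These limits are wide for some results. The 0.1 for dispersion is close to the median residual of 0.11 itself, so that the 0.0373 without cell 1 still counted as within it. The number of abundant shared members stayed between 15 and 18. Detection limits of 5 and 10 counts could not change that number, because the lowest count among the abundant members was 55. With 50% in place of 80% of the CPM, 5 members passed the limit: S100a5, S100a8, S100a14, Anxa10 and Lgals2. Of these, Anxa10 had 7 counts in each of cells 2 and 3, and Lgals2 had at most 4 counts. The share of all genes that pass at 50% was not computed. Without the 50 most abundant genes of each cell, the median shares were 0.188% for S100 genes, 0.312% for annexins, 0.0894% for galectins and 0.603% for all members, as these genes include the leading members. With the longest transcript 9 of 17 members held their place. The r of Anxa2 and S100a10 was 0.373 without cells 3 and 10; the cause was not tested. Leaving out each cell gave 1 to 2 members held by 1 cell, since Anxa10 joined S100a8 without cell 2 or cell 3; without cell 3, S100a8 was held by cell 1. It gave 0.0373 to 0.172 for the median dispersion residual, 0.450 to 0.703 for Anxa2 and S100a10 and 0.336 to 0.544 for the median r of S100 pairs. The S100 pair settings, and the ratios, coefficients of variation, single-gene residuals and share ranges without cells 3, 9 or 10, were added after the data were seen. No paired analysis was possible because the 12 cells form 1 group. Depth limits the reading of members at 3 counts or fewer.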

Other observations

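Relatives whose names fall outside the member rule were also read. Of the 9 in the table, 5 had counts. Lgals3bp, a secreted glycoprotein that binds galectins, was counted in 12 cells at a median of 93.3 CPM and was highest in cell 3, at 756 CPM. Lgalsl, a galectin-like gene, was counted in 11 cells at a median of 19.6 CPM. S100a7a had counts in 8 cells, with 18.7 CPM in cell 5 as the highest. S100pbp, which binds S100 proteins, was counted in 11 cells at a median of 4.45 CPM. Tchh, the gene of a fused S100 protein of hair follicles, had counts in 10 cells, with 12.2 CPM in cell 7 as the highest. S100z, Grifin, Hrnr and Rptn had no counts. Of 10 epithelial and mesothelial markers 6 had no counts in any cell, and the sum over the list was at most 39.3 CPM.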
